A study of Mus musculus with 22 samples.

Results

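The MHC class II presentation genes were 10 of the 31053 genes counted in every library: the classical chains H2-Aa, H2-Ab1 and H2-Eb1, the invariant chain Cd74, the peptide-loading chains H2-DMa, H2-DMb1 and H2-DMb2, the H2-DO chains H2-Oa and H2-Ob, and the transactivator Ciita. They were taken as a named list, by a rule that uses no measured value though it was drawn up with earlier results of these data known, and all 10 were present in the gene table. Their levels were read as CPM, the count of a gene scaled to the library or class total of unique molecular identifiers (UMIs, each marking a captured transcript) and as the share of barcodes with a UMI, by kind of library and by cell class. Cell classes were set with marker genes that include none of the 10, and the non-leukocyte classes (gates on Sftpc, Pecam1 and Epcam) were kept apart from the leukocytes.

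The study asked how loss of the sodium leak channel Nalcn alters the shedding of cells from mouse organs into blood. All mice carried Prom1-CreERT2;Rosa26ZSG, in which a tamoxifen-activated Cre driven by the Prom1 promoter turns on the green protein ZSG, so only Prom1-expressing cells and their progeny were marked or could lose a conditional Nalcn allele. Non-tumour circulating ZSG+ cells (ntCZC) were sorted from peripheral blood in 10 libraries: 2 from mice without a Nalcn allele in the strain name (Nalcn-wt), 4 from Nalcn-het and 4 from Nalcn-null mice, aged 551 to 649 days. Tissue libraries each pooled kidney, liver, lung, stomach and either epididymis (males) or uterus (females) with hashtags. There were 9 with a genotype (5 Nalcn-wt, 2 Nalcn-het, 2 Nalcn-null, 551 to 654 days), and for 2 more the title and the strain disagreed, so they entered no test. A library of peripheral blood mononuclear cells (PBMC) came from a Nalcn-wt male of 120 days. The labels do not name animals, several libraries share an age and a sex, and p-values therefore measure the spread between libraries. The hashtag reads that would give a barcode its organ were not analysed here.

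MHC class II molecules are pairs of an alpha and a beta chain that carry peptides from internalised protein to the surface of a cell, where CD4+ T cells read them. Newly made pairs are held by the invariant chain, whose last fragment is swapped for peptide with the help of H2-DM, and H2-DO restrains H2-DM in selected cells. CIITA, itself not a DNA-binding factor, is recruited to a conserved promoter module (the W, X and Y boxes) and is the master switch of the whole set in B cells, dendritic cells and macrophages.

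The promoter module is shown because CIITA is known to act through it. In RefSeq promoter windows on GRCm38.p6, running from 250 bases before to 50 bases after each annotated start, 7 of the 10 members had a window. A Y-box core (GATTGG) preceded by the letters AAC at a distance of 22 to 32 bases, searched on both strands, was found for 6 members. GATTGG alone occurred in 16.1% of 32851 mouse promoter windows and the pair in 2.16%. The stretches of the 4 genes in which it lies outside annotated exons are given 5′ to 3′ on the strand of each gene, with AAC and GATTGG in capitals. All lie in the H2 region of chromosome 17, that of H2-DMb2 in an intron of its longest transcript and the others before the gene.
H2-DMb2, chr17:34145116-34145169, plus strand: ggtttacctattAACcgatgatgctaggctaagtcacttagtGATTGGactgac
H2-Ob, chr17:34238808-34238858, plus strand: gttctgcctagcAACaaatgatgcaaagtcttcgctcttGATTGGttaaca
H2-Aa, chr17:34287861-34287914, minus strand: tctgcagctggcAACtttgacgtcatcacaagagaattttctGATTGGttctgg
H2-Eb1, chr17:34305766-34305818, plus strand: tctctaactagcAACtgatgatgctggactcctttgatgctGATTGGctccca

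The capitals were 27 bases apart in H2-DMb2 and H2-Aa, and also in H2-DMb1 and H2-Oa, against 26 in H2-Eb1 and 24 in H2-Ob. The end of GATTGG lay 38 to 85 bases before the RefSeq start in the 6 genes. The stretch of H2-DMb1 was identical to that of H2-DMb2 at 48 of 54 positions. These genes are near-copies of each other, so reads from regions they share may have been assigned to either or dropped, and how the authors' counting handled them is not given in the sources used here. In the GENCODE annotation of the same build, H2-DMb2 spans 34143307-34151555 and H2-DMb1 34153072-34160230, H2-Oa spans 34092340-34095234, H2-DMa 34119541-34139101 and H2-Ab1 34257689-34269419, all on the plus strand. H2-DMa held no such pair in its 2 windows. A match is a description of letters and not a measured binding site.

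The 22 libraries held 179929 barcodes. Total UMIs ran from 161541 to 2600526 in ntCZC libraries and from 8571019 to 139793927 in tissue libraries, and the PBMC library held 1422144. After a minimum of 200 genes and a maximum of 25% mitochondrial UMIs, 2109 of 2501 ntCZC barcodes and 72758 of 143502 barcodes from tissue libraries with a genotype were kept for cell classes. The ntCZC Nalcn-wt replicate 3 library stood apart, with 77 barcodes at a median of 325 UMIs, of which 14.3% passed, and so did tissue Nalcn-wt replicate 5 (15.5% passed). Tissue Nalcn-null replicate 3, labelled female, held Xist together with Y-linked transcripts. No 2 ntCZC libraries shared a barcode, and the largest number shared by 2 libraries was 226 barcodes, 0.86% of the smaller library. As a share of the smaller library the highest was 2.60%, at 2 of the 77 barcodes of ntCZC Nalcn-wt replicate 3. Non-leukocyte gates were closed to barcodes that met a leukocyte gate, so a leukocyte barcode with a non-leukocyte pattern stayed in its leukocyte class. Some overlaps of leukocyte gates were given to a single class, such as T over NK and alveolar over C1q macrophages. Barcodes that still met 2 or more gates were treated as possible doublets and left out of the classes. They carried 21.5% of the Cd74 UMIs of tissue barcodes that passed, on average over 9 libraries, and barcodes that met no gate carried 15.1%.

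In tissue, the antigen-presenting leukocytes held the highest member levels, and the members did not rank the classes alike. Type 2 conventional dendritic cell (cDC2)-gated barcodes, professional presenters to CD4+ T cells, had 16879.8 ± 3924 CPM of Cd74 (SD, n = 8 libraries; lowest 10154, highest 23264). C1q macrophage-gated barcodes followed at 10368 ± 3989 CPM (n = 9), Ccr7+ dendritic cells at 7679 ± 2659 CPM (n = 5), B-gated barcodes at 6670 ± 1424 CPM (n = 8) and cDC1-gated barcodes at 6227 ± 3034 CPM (n = 8). The ranges of neighbours in this order met, while cDC2- and B-gated barcodes, further apart in it, did not overlap. Within libraries, the cDC2 level of Cd74 was above the C1q macrophage level in 8 of 8 libraries and above the cDC1 level in 8 of 8. Cd74 lies on chromosome 18 at 60803848-60812652 (plus strand) and Ciita on chromosome 16 at 10480059-10528418 (plus strand).

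The classical chains followed the same leading class. H2-Aa, the alpha chain of I-A, stood at 7211 ± 1368 CPM in cDC2-gated barcodes, 4121 ± 1674 CPM in C1q macrophages and 2357 ± 355 CPM in B-gated barcodes. H2-Eb1, the beta chain of I-E, stood at 6410 ± 1705, 3405 ± 1518 and 1610 ± 269.6 CPM in the same classes. H2-Ab1, the beta chain of I-A, was at 7215 ± 1508 CPM in cDC2-gated barcodes. All 3 chains were lower in alveolar macrophages, the resident macrophages of the air sacs, where H2-Aa was 909.6 ± 188 CPM and H2-Eb1 481 ± 127 CPM (n = 8).

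Single barcodes were also scored for holding H2-Aa, H2-Ab1, H2-Eb1 and Cd74 together, as the share expected if each barcode were thinned to 1000 UMIs. All 4 were present in 89.0% ± 4.6 of cDC2-gated barcodes (SD, n = 7), in 65.5% ± 16.2 of C1q macrophages (n = 9), in 57.1% ± 9.9 of tissue B-gated barcodes (n = 8) and in 15.3% ± 4.1 of alveolar macrophages (n = 8). T-gated barcodes, which in mice are not known to make class II, held all 4 in 2.14% of cases. Since droplets can hold free RNA of other cells, the T-gated value is printed beside the other classes as a comparison level. How much of it is free RNA was not tested, and some non-leukocyte classes lay below it.

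The H2-DM beta chains H2-DMb1 and H2-DMb2 lay in opposite order in C1q macrophages and B-gated barcodes. H2-DMa, the alpha chain of H2-DM, was 678 ± 102 CPM in cDC2-gated barcodes, 354 ± 109 CPM in C1q macrophages, 310.3 ± 33.6 CPM in alveolar macrophages and 250.4 ± 33.3 CPM in B-gated barcodes. Alveolar macrophages thus stood beside C1q macrophages for H2-DMa, while for Cd74 they were below them in 8 of 8 libraries (2840 against 10344 CPM). H2-DMb1, a beta chain of H2-DM, was 244 ± 74.1 CPM in C1q macrophages and 77.2 ± 17.7 CPM in B-gated barcodes, and the ranges of these classes did not meet (133 to 349 against 48.3 to 98.4 CPM). H2-DMb2, the other beta chain, ran the opposite way: 211 ± 32.05 CPM in B-gated barcodes (lowest 153, highest 249) and 9.95 ± 8.02 CPM in C1q macrophages (lowest 2.63, highest 29.1).

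Set against each other within a class, H2-DMb2 made up 73.3% ± 3.9 of the UMIs of the H2-DM beta genes in tissue B-gated barcodes (SD, n = 8 libraries; lowest 69.3%, highest 81.4%). It made up 24.2% ± 3.4 in cDC2-gated barcodes, 11.6% ± 5.3 in cDC1-gated barcodes, 5.81% ± 2.53 in alveolar macrophages and 4.10% ± 2.85 in C1q macrophages (n = 9). The B-gated range met none of these 4, but it lay within that of Ccr7+ dendritic cells (57.4% ± 24.4, n = 3, lowest 37.5%, highest 84.6%), and plasma-gated barcodes reached 66.7% (49.2% ± 25.4, n = 3). Both classes held few UMIs of the pair. Pooled, the share was 51.9% in Ccr7+ dendritic cells (69 UMIs of H2-DMb2 and 64 of H2-DMb1, interval 43.1 to 60.6%). In plasma-gated barcodes it was 51.2% (43 and 41 UMIs, interval 40.0 to 62.3%). In blood the B-gated share was 72.2% ± 8.7 over 6 ntCZC libraries and 76.0% in the PBMC library (95% exact binomial interval 69.6 to 81.6%; counting error only). Pooled over UMIs it was 76.5% in ntCZC libraries (73.7 to 79.1%) and 71.9% in tissue (70.6 to 73.2%), and the difference was not tested over libraries. In ntCZC nonclassical monocytes, the patrolling monocytes of blood, H2-DMb2 was 2 of the 452 UMIs of the pair over 7 libraries. T-gated barcodes of tissue, the comparison class, stood at 28.2% ± 15.9 (n = 7), between the macrophage and B-gated values. The plot of paired-gene shares shows these values by class.

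**Figure D1:**
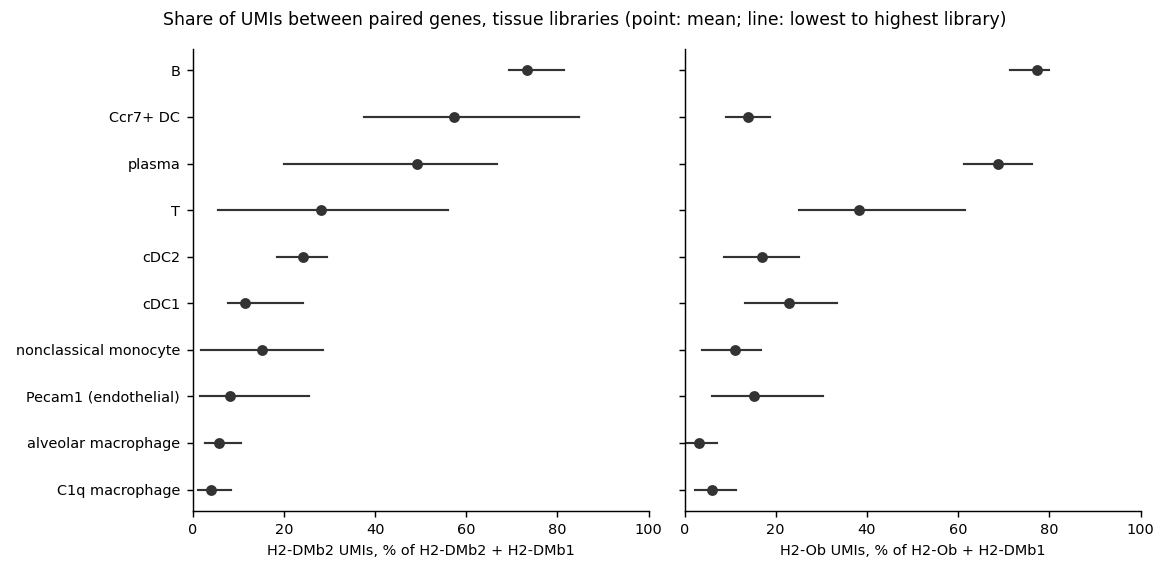
Share of UMIs between paired genes in tissue libraries, by marker-gated class: H2-DMb2 as a percent of H2-DMb2 and H2-DMb1 (left), and H2-Ob as a percent of H2-Ob and H2-DMb1 (right). Points are means over libraries and lines run from the lowest to the highest library; B-gated barcodes sit at 73.3% and 77.2%, and C1q macrophages at 4.10% and 6.03%.

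The H2-DO chains were highest in B-gated and cDC2-gated barcodes. H2-Ob, the beta chain of this H2-DM inhibitor, was 264 ± 66.4 CPM in B-gated barcodes, 76.4 ± 20.4 CPM in cDC2-gated barcodes, 68.2 ± 39.9 CPM in cDC1-gated barcodes and 15.3 ± 8.46 CPM in C1q macrophages. Ccr7+ dendritic cells, at 14.6 ± 15.7 CPM (n = 5), and plasmacytoid dendritic cells, at 21.97 and 13.1 CPM in 2 libraries, had mean H2-Ob levels close to that of the macrophages. H2-Oa, its alpha chain, was 127 ± 20.9 CPM in B-gated barcodes and 151 ± 35.8 CPM in cDC2-gated barcodes, which overlapped, 81.8 ± 44.7 CPM in Ccr7+ dendritic cells and 15.8 ± 7.89 CPM in C1q macrophages. T-gated barcodes held 14.9 ± 14.0 CPM of H2-Ob and 10.8 ± 9.09 CPM of H2-Oa, so the macrophage values, and those of H2-Ob in the last 2 dendritic classes, were not separated from the T-gated ones. B-gated barcodes were 8.72% of the passing tissue barcodes on average and held 42.5% of the H2-Ob UMIs, 41.5% of those of H2-DMb2 and 29.8% of those of H2-Oa, against 12.0% of those of Cd74.

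Ciita, the transactivator, was a low-count gene in every class. It reached 167 ± 59.5 CPM in cDC2-gated barcodes, 114 ± 79.3 in cDC1-gated barcodes, 91.1 ± 30.1 in B-gated barcodes and 90.3 ± 57.9 in C1q macrophages, with overlapping ranges, and 15.5 ± 4.92 CPM in alveolar macrophages. Plasma-gated barcodes, antibody-secreting cells that descend from B cells, had 1858 ± 587 CPM of Cd74 (n = 5), above the T-gated level of the same library in 5 of 5. Their Ciita, at 4.01 ± 4.38 CPM, was above the T-gated level in 1 of 5.

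**Figure D2:**
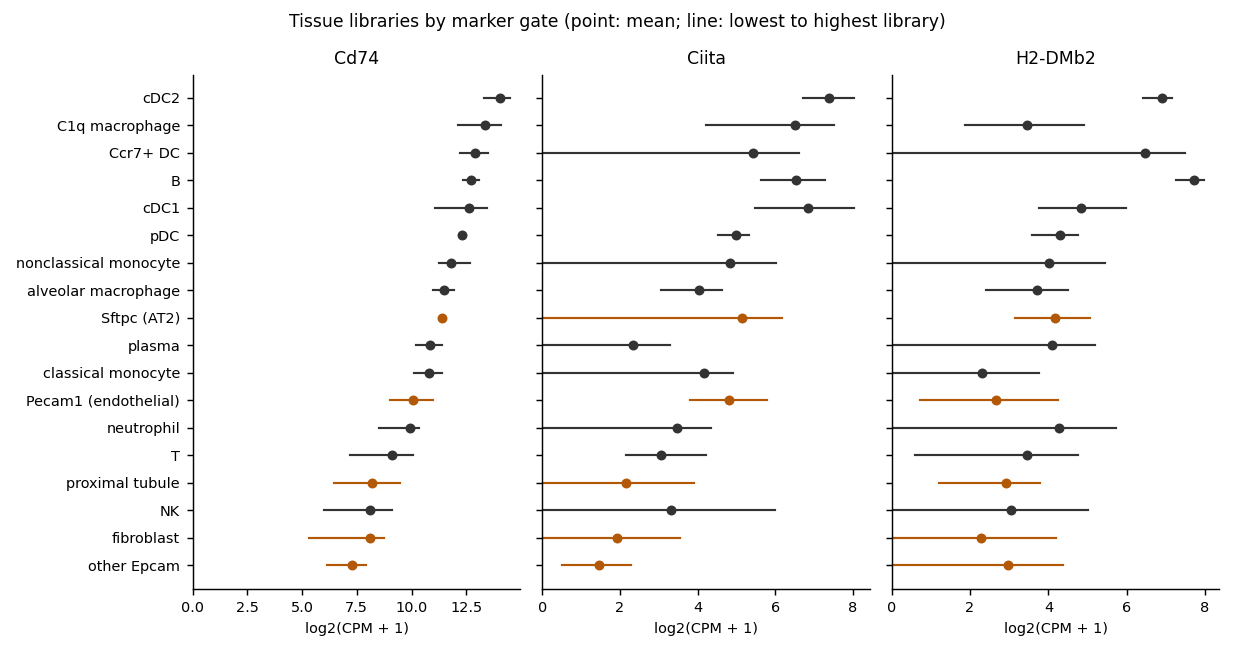
Cd74, Ciita and H2-DMb2 in tissue libraries by marker gate, on a log2(CPM + 1) axis; points are means over libraries, lines run from the lowest to the highest library, and orange marks non-leukocyte classes. Cd74 falls from cDC2-gated barcodes (16879.8 CPM) to other Epcam-gated barcodes (152 CPM), and H2-DMb2 is highest in B-gated barcodes (211 CPM).

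Over the means of 19 tissue classes, the 5 genes outside the list whose log2(CPM + 1) pattern was most like the mean pattern of H2-Aa, H2-Ab1, H2-Eb1 and Cd74 were Cd83 (Pearson r 0.894), Fgd2 (0.885), Espl1 (0.850), Pld4 (0.833) and Aif1 (0.828), out of 13451 genes with at least 10 CPM in some class that set no gate. Cd83 is a surface protein of activated dendritic cells and Aif1 marks macrophages. Of the 6 members outside that mean, Ciita (0.933), H2-DMa (0.927) and H2-DMb1 (0.879) were close to it, H2-DMb2 (0.770) less so, and H2-Oa (0.562) and H2-Ob (0.469) least. The points share libraries, so these are descriptions.

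Whether circulating ZSG+ cells carry class II transcripts at another level than dissociated tissue was read first over all barcodes of a library. Cd74 stood at 4756 and 569.5 CPM in the ntCZC Nalcn-wt libraries, at 8574, 7149, 11337 and 4225 CPM in Nalcn-het, and at 5364, 5985, 6619 and 5091 CPM in Nalcn-null. In the 9 tissue libraries it ran from 1538 to 2737 CPM with a median of 1892. Of the ntCZC libraries, 9 of 10 were above every tissue library and Nalcn-wt replicate 3, the shallow library, was below them all. The log2 change, ntCZC minus tissue, was 1.39 (SE 0.26, adjusted p = 8.95e-05, edgeR quasi-likelihood test with sex as a covariate, Benjamini-Hochberg adjustment over 11905 genes). In such sums, fewer cells of a type and less RNA per cell cannot be told apart. Pooled over passing barcodes, nonclassical monocyte-gated ones were 42.1% in ntCZC and 0.98% in tissue libraries, and B-gated ones 12.4% and 9.95%. Endothelial barcodes were 9.86% in tissue, with 1 such barcode in ntCZC. Other Epcam-gated barcodes were 3.38% in tissue and absent from ntCZC. The part of this make-up in the result was not tested.

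Of the 10 members 8 were higher in ntCZC libraries and none was lower, where 27.5% of all genes tested were called higher (3274 of 11905) and more were called lower (4586). H2-DMa and H2-DMb1, of the peptide-loading complex, were among the members called. H2-DMa ran from 24.8 to 331 CPM (median 261) in ntCZC libraries and from 76.9 to 138 CPM (median 103) in tissue, with a log2 change of 1.16 (SE 0.18, adjusted p = 9.78e-06). H2-DMb1 ran from 6.19 to 263 CPM (median 156) against 53.3 to 83.5 CPM (median 62.5), with a log2 change of 1.30 (SE 0.24, adjusted p = 8.76e-05). Outside Nalcn-wt replicate 3, every ntCZC library was above the tissue maximum for both genes.

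The classical chains were higher by 0.66 (H2-Aa, SE 0.28, adjusted p = 0.0421), 0.95 (H2-Ab1, SE 0.29, adjusted p = 0.00628) and 1.08 (H2-Eb1, SE 0.31, adjusted p = 0.00446) on the log2 scale. H2-DMb2 was higher by 1.32 (SE 0.47, adjusted p = 0.0196) with ntCZC libraries between 0 and 275 CPM, and Ciita by 0.64 (SE 0.26, adjusted p = 0.0349). H2-Oa (0.50, adjusted p = 0.192) and H2-Ob (0.43, adjusted p = 0.377) did not pass. No member separated the groups without overlap, and Nalcn-wt replicate 3 was the lowest ntCZC library for all 10. Leaving out single libraries left 5 to 8 members called: 5 remained without ntCZC Nalcn-het replicate 1, without ntCZC Nalcn-het replicate 2 or without tissue Nalcn-wt replicate 5. H2-Aa lost its call in 20 of 25 alternatives and Ciita in 15, while H2-DMa, H2-DMb1 and Cd74 kept theirs in all 25. With only barcodes of at least 200 genes, 5 members were called. The share of all genes called in these refits is not given here. The plot of members by library shows the values.

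**Figure D3:**
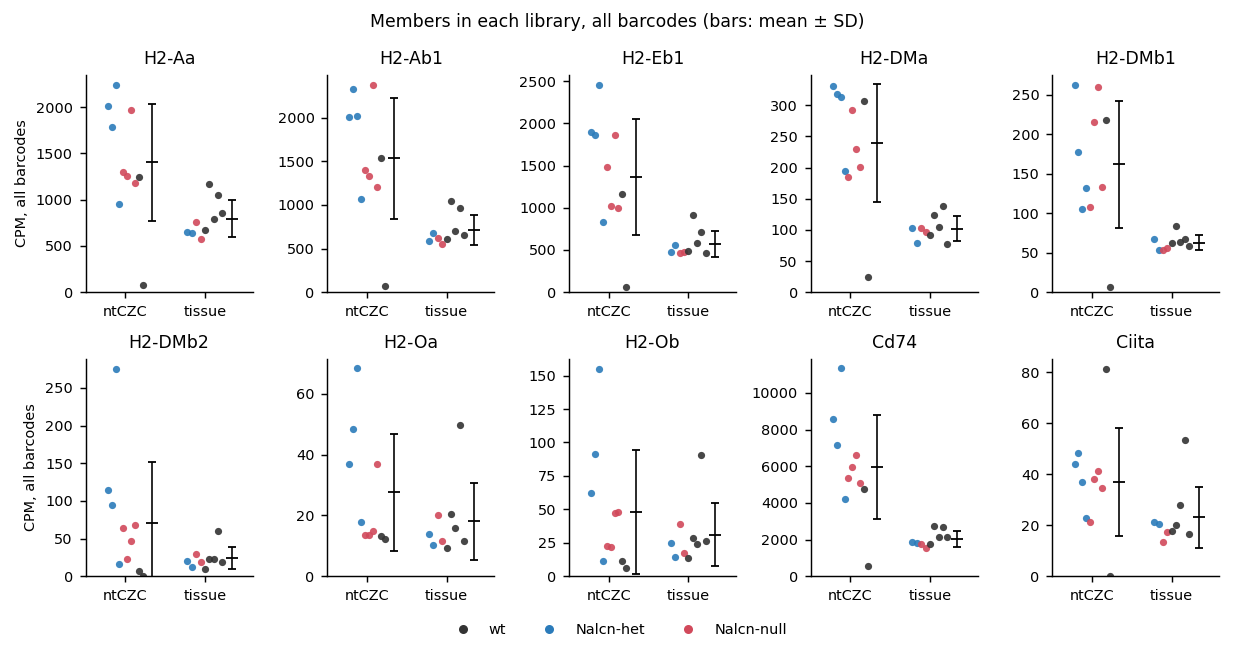
CPM of each member over all barcodes of a library, ntCZC (10) against tissue (9), each panel on its own linear axis from 0; points are libraries coloured by genotype, and bars give the mean ± SD (cut at 0 for H2-DMb2). The lowest ntCZC point in the Cd74 panel, at 569.5 CPM, is Nalcn-wt replicate 3, and the highest, at 11337 CPM, is Nalcn-het replicate 3.

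The other genes of the pathway were read in the same fit. Of 10 regulators tested, Spi1 (log2 change 2.49), a myeloid and B-cell transcription factor, and Rfxap (1.19), a subunit of the RFX complex on the X box, were higher and none was lower. Of 6 genes of antigen processing 2 were higher, the proteases Ctss (1.45) and Ctsh (1.45), and 3 were lower, with Ctsl (-2.03) the furthest. The ubiquitin ligase genes March1 (2.43) and March8 (-2.10), whose proteins remove class II from the surface, moved in opposite directions, and of 3 costimulatory genes Cd86 (0.98) and Cd40 (0.86) were higher. H2-Eb2, a further class II beta gene, was not called here or in any other comparison that tested it. The median log2 change was 1.01 over the members and -0.13 over all genes tested. Of all 11905 genes, 3274 were called higher and 4586 lower.

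B-gated barcodes were also compared alone. Cd74 was 13454, 16612, 19746 and 20158 CPM in Nalcn-het and 19341 and 19293 CPM in Nalcn-null ntCZC libraries (n = 6 with at least 20 such barcodes), and ran from 5132 to 8578 CPM (median 6098) in 8 tissue libraries. The groups did not overlap, and the log2 change was 1.41 (SE 0.14, adjusted p = 1.44e-06). No Nalcn-wt ntCZC library entered (10 and 1 B-gated barcodes), while 4 of the 8 tissue libraries were Nalcn-wt. Genotype was not in the fit, so it is partly mixed with the kind of library. The PBMC library, from a younger mouse and not sorted on ZSG, stood at 14186 CPM of Cd74, within the ntCZC range.

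In all, 8 of 10 members were higher in circulating B-gated barcodes, against 14.4% of 7455 genes tested. H2-DMb2 rose from 211 ± 32.05 CPM in tissue to 558 ± 89.0 CPM, without overlap (log2 change 1.35, SE 0.16, adjusted p = 7.23e-06). H2-Eb1 rose from 1610 ± 269.6 to 3919 ± 498 CPM, without overlap (1.23, SE 0.14, adjusted p = 4.94e-06). H2-Ab1 (0.99, adjusted p = 1.73e-04) and H2-DMa (1.22, adjusted p = 1.07e-04) also separated the groups. H2-DMb1 (1.46, adjusted p = 3.98e-04), H2-Oa (0.80, adjusted p = 0.00823) and H2-Aa (0.60, adjusted p = 0.00317) were higher with overlapping groups.

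Ciita was not called, unlike most of the genes it is known to control, and the difference between its change and theirs was not tested. It was 84.5 ± 47.1 CPM in circulating (n = 6) and 91.1 ± 30.1 CPM in tissue B-gated barcodes (n = 8), with overlapping ranges (38.6 to 147 against 48.3 to 153 CPM), a log2 change of -0.33 (SE 0.28) and an adjusted p of 0.367. H2-Ob stood at 386 ± 117 against 264 ± 66.4 CPM (0.47, SE 0.19, adjusted p = 0.0584) and passed in 6 of 20 alternatives. The 8 calls held in all 20 alternatives. In the PBMC B-gated barcodes (n = 239), Ciita was 358 CPM, above every ntCZC and tissue library.

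Tissue B-gated barcodes held more UMIs of other cells' markers than circulating ones. The 6 endothelial markers summed to 515 CPM in tissue (lowest 375, highest 636) with all 6 present in every library, and to 66.6 CPM in ntCZC (lowest 34.3, highest 95.01). The 5 B markers themselves summed to 2997 CPM in tissue (lowest 2206, highest 3797) and to 7418 CPM in ntCZC (lowest 6224, highest 9465), so the B genes that set the gate moved with the members. Median UMIs per B-gated barcode ran from 919 to 2151 in tissue and from 2254 to 9854 in ntCZC libraries. Without the tissue barcodes that held a non-leukocyte pattern, Cd74 was 7754 ± 1703 CPM in tissue (highest 10019.7), still below every ntCZC library. The part of depth and of the other markers in the result was not tested.

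Of 9 regulators tested in B-gated barcodes, 2 were higher and 3 lower: Spi1 (1.06) rose, while Nfya (-1.06), a subunit of the factor that binds the Y box, and Creb1 (-0.93), which binds the X box, fell. Of all genes tested, 1921 of 7455 were lower. Of 6 processing genes 2 were higher and 4 lower, among these Ctsl (-3.54), Ctsd (-2.84) and Ctsb (-1.79), proteases abundant in macrophages. March1 was higher (1.09) and Cd86 lower (-0.84). The members' median was 1.11, and that of all genes -0.19.

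Nonclassical monocyte-gated barcodes were compared in the same way. Cd74 ran from 3530 to 7900 CPM (median 4604) in 7 ntCZC libraries and from 2439 to 6559 CPM (median 3324) in 7 tissue libraries, with a log2 change of 0.33 (SE 0.21, adjusted p = 0.245). H2-Aa (-0.17, adjusted p = 0.583), H2-Ab1 (-0.16, adjusted p = 0.543) and H2-Eb1 (0.11, adjusted p = 0.739) lay on either side of 0. Of 7 members tested, H2-DMb1 alone was called higher (119 ± 19.7 against 79.9 ± 24.6 CPM, log2 change 0.48, SE 0.18, adjusted p = 0.0495), where 14.9% of all genes were (847 of 5683, with 1081 lower), and it lost the call in 15 of 20 alternatives. DESeq2 called 0. H2-DMb2 had no UMI in 6 of these 7 ntCZC libraries. Other pathway genes did change in monocytes: of 8 regulators Spi1 (1.41) and Rfxap (1.21) were higher, of 6 processing genes 2 were higher (Ctss, 1.10) and 3 lower (Ctsl, -2.13, and Ctsd, -1.41), and March1 was higher (1.31).

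The change in B-gated barcodes exceeded that in monocytes for H2-Ab1, H2-Eb1 and Cd74, of the 7 members tested in monocytes. It was tested as the difference of the 2 changes within 12 libraries that held both classes, where 1.5% of 8858 genes were called higher. The difference was 1.06 for H2-Ab1 (SE 0.27, adjusted p = 0.0264), 1.03 for H2-Eb1 (SE 0.24, adjusted p = 0.014) and 0.98 for Cd74 (SE 0.22, adjusted p = 0.00927). For H2-DMb2 it was 4.92 (SE 0.97, adjusted p = 0.00413), a value that rests on ntCZC monocyte counts near 0, since H2-DMb2 did not pass the filter in monocytes and entered this test through B-gated barcodes. H2-Aa (0.69, adjusted p = 0.159), H2-DMa (0.88, adjusted p = 0.113) and H2-DMb1 (1.04, adjusted p = 0.0946) did not pass. Nor did H2-Oa and H2-Ob, which were likewise not tested in monocytes alone. Without ntCZC Nalcn-null replicate 4 a single call remained (H2-DMb2), and without ntCZC Nalcn-het replicate 2 there were 2. The plot of circulating minus tissue changes sets the 3 fits side by side.

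**Figure D4:**
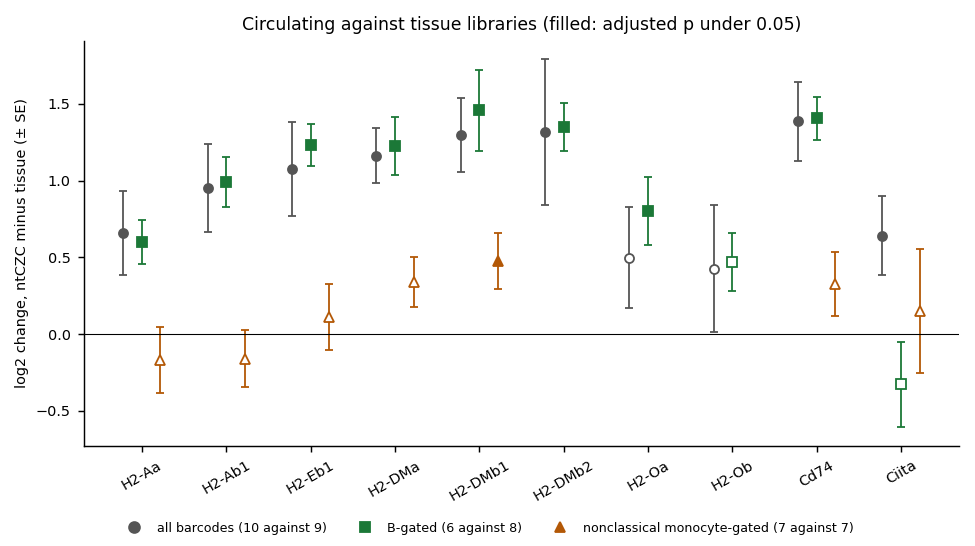
The log2 change of each member, ntCZC minus tissue, with its SE, over all barcodes (circles), B-gated barcodes (squares) and nonclassical monocyte-gated barcodes (triangles); filled symbols have an adjusted p under 0.05 and members that were not tested have no symbol. Cd74 sits at 1.39, 1.41 and 0.33.

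Among non-leukocytes, type II pneumocytes (AT2), the surfactant-making cells of the alveolus, carried class II transcripts well above other epithelium. They were gated by at least 3 of 7 surfactant and lamellar-body genes with Sftpc at 1% of UMIs or more, no UMI of the pan-leukocyte gene Ptprc and no leukocyte gate. Only 117 barcodes in 8 libraries qualified, and 3 libraries held at least 20: Nalcn-wt replicate 2 (31 barcodes), Nalcn-het replicate 1 (24) and Nalcn-null replicate 2 (24). Cd74 was 2603, 2722 and 2675 CPM in these, against 239, 77.5 and 177 CPM in the other Epcam-gated barcodes of the same libraries. The groups were far apart, with a log2 change of 4.13 (SE 0.38, adjusted p = 8.01e-25). With only 3 libraries, p-values in the fits of AT2-gated barcodes rest largely on a spread between libraries that is pooled over genes.

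The filter on low counts left 7 of the 10 members, and these were called higher in AT2-gated barcodes, where 4.33% of 8853 genes were. H2-Oa, H2-Ob and H2-DMb2 did not pass the filter and Ciita passed it through the AT2-gated libraries, so the count is partly set by the filter and is a description. H2-Aa was 686, 717 and 979 CPM against 74.8, 25.7 and 74.6 CPM (log2 change 3.88, SE 0.39, adjusted p = 3.64e-21). H2-Ab1 (3.29, SE 0.38) and H2-Eb1 (2.94, SE 0.38) rose with it. The loading chains H2-DMa (84.4 against 12.4 CPM; 2.91, SE 0.58, adjusted p = 1.47e-05) and H2-DMb1 (81.2 against 13.4 CPM; 2.41, SE 0.60, adjusted p = 0.00119) were higher without overlap. Ciita was 71.0, 31.7 and 0 CPM in the 3 libraries, against 0.755 to 3.77 CPM, and overlapped at its 0 although the fit called it (4.47, SE 1.02, adjusted p = 2.46e-04). Without Nalcn-wt replicate 2, 4 members were called, since H2-DMa and H2-DMb1 lost their calls and Ciita was no longer tested.

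H2-Oa, H2-Ob and H2-DMb2 were scarce in AT2-gated barcodes. H2-Oa had no UMI in the 3 libraries, H2-Ob had 7.89, 0 and 0 CPM, and H2-DMb2 7.89, 10.6 and 32.6 CPM. The H2-DMb2 values rest on 3 UMIs in all, so their order between libraries is not a result. Markers of other cells were measured in the same barcodes: the 5 B markers summed to 15.8, 42.2 and 32.6 CPM with Ms4a1 and Fcmr at 0 in each library, the 3 C1q genes to 39.4, 10.6 and 32.6 CPM and the cDC2 markers to 15.8, 0 and 0 CPM. The 6 alveolar macrophage markers summed to 39.4, 42.2 and 130.5 CPM with Cidec and Marco at 0 in each library, and 7 further leukocyte genes to 252, 116 and 979 CPM, against 2195 to 3130 CPM in T-gated barcodes. An AT2-gated barcode could meet no leukocyte gate, so low sums of the B, C1q, alveolar macrophage and cDC2 lists were partly fixed by the gates. In tissue B-gated barcodes the B list summed to 2997 CPM on average beside 6670 CPM of Cd74, and in C1q macrophages Cd74 was 10368 CPM. Barcodes with no UMI of these 7 leukocyte genes, 72 over all libraries, held 2702 CPM of Cd74 when pooled, against 2738 CPM for all 117. Raising the Sftpc share to 3% gave 2539 ± 222 CPM.

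Against T-gated barcodes of the same 3 libraries, Cd74 was higher in AT2-gated barcodes (2667 ± 59.9 against 779 ± 314 CPM, log2 change 1.95, SE 0.32, adjusted p = 3.61e-08). Of the 6 members that passed the filter, 4 were higher, where 13.3% of 5378 genes were: Cd74, H2-Aa (1.52, adjusted p = 3.18e-05), H2-Ab1 (1.03, adjusted p = 0.00727) and H2-DMb1 (1.37, adjusted p = 0.039). H2-DMa (1.05, adjusted p = 0.071) and H2-Eb1 (0.63, adjusted p = 0.143) did not pass. DESeq2 called 2 members, with 1020 genes called in all where edgeR called 1656. The fit without Nalcn-het replicate 1 or without Nalcn-wt replicate 2 also called 2 members. At a depth of 1000 UMIs, 87.4%, 85.9% and 81.2% of AT2-gated barcodes were expected to hold Cd74 in the 3 libraries, against 26.2%, 10.2% and 39.4% of T-gated ones, the third AT2 share resting on 15 barcodes of that depth. Unthinned, the shares were 96.8%, 91.7% and 83.3% against 48.6%, 18.1% and 36.1%, at median depths of 1076.5 to 3860.5 and 985 to 2374.5 UMIs. All 4 of Cd74, H2-Aa, H2-Ab1 and H2-Eb1 were expected together in 5.31% ± 0.57 of AT2-gated barcodes (n = 2 libraries), close to the share in lung capillary endothelium and below that in B-gated barcodes.

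**Figure D5:**
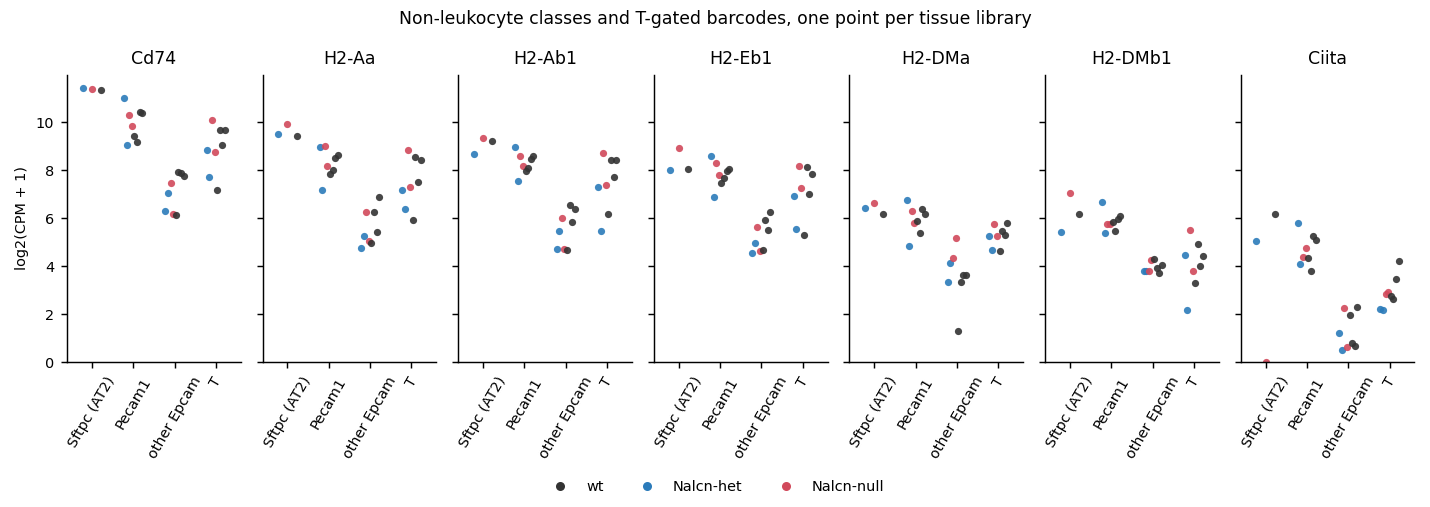
Members that could be tested in AT2-gated barcodes, as log2(CPM + 1) per tissue library, in AT2-gated, Pecam1-gated, other Epcam-gated and T-gated barcodes; each point is a library coloured by genotype. Cd74 in AT2-gated barcodes lies between 2603 and 2722 CPM, above every T-gated point (highest 1079 CPM), and other Epcam-gated barcodes lie lowest (69 to 239 CPM).

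Pecam1-gated endothelial barcodes, which line vessels, also held class II transcripts. Cd74 ran from 520.3 to 2039 CPM over 8 tissue libraries (mean 1083 ± 514) and from 68.6 to 239 CPM in other Epcam-gated barcodes (152 ± 74.2), with no overlap and a log2 change of 2.69 (SE 0.32, adjusted p = 7.62e-06). Ciita ran from 12.96 to 54.4 CPM against 0.428 to 3.84 CPM, again with no overlap (4.11, SE 0.38, adjusted p = 8.2e-07). Ciita had 1 to 9 UMIs per library in other Epcam-gated barcodes and so passed the filter on low counts through the endothelial libraries. With it, 8 of 10 members were higher, where 32.5% of 13552 genes were, a count that the filter sets in part. H2-DMb1 (59.2 ± 19.2 against 14.6 ± 2.47 CPM, log2 change 1.84, SE 0.20, adjusted p = 4.53e-06) was one of these, without overlap. H2-DMb2 (5.30 against 6.79 CPM; -0.72, adjusted p = 0.219) and H2-Oa (2.70 against 1.52 CPM; 0.35, adjusted p = 0.548) did not pass.

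Set against T-gated barcodes, endothelium differed by member. Ciita (27.3 ± 13.7 against 7.30 ± 4.65 CPM; log2 change 1.64, SE 0.26, adjusted p = 8.54e-05), H2-DMb1 (59.2 against 19.6 CPM; 1.46, SE 0.25, adjusted p = 1.80e-04) and Cd74 (1083 against 556 ± 321 CPM; 0.87, SE 0.25, adjusted p = 0.00795) were higher. H2-Ab1 (0.60, adjusted p = 0.041), H2-Aa (0.57, adjusted p = 0.0421) and H2-DMa (0.49, adjusted p = 0.0236) were higher by less, 6 in all where 29.5% of 12509 genes were higher. H2-Oa (2.70 against 10.8 CPM; -2.34, SE 0.37, adjusted p = 7.72e-05) and H2-DMb2 (5.30 against 9.86 CPM; -1.14, SE 0.28, adjusted p = 0.00286) were lower, where 34.4% of genes were. No member separated these classes without overlap. Without Nalcn-het replicate 1 or without Nalcn-wt replicate 3, 5 members were called, and H2-Aa and H2-Ab1 lost their calls in 7 of 14 alternatives each. Cd74 was higher in endothelium than in T-gated barcodes in 7 of 8 libraries and Ciita in 8 of 8.

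The B markers summed to 33.6 CPM in endothelial barcodes (lowest 8.92, highest 91.4) and to 47.7 CPM in T-gated barcodes, and the C1q genes to 21.0 and 23.5 CPM. Both classes leave out barcodes that met the B or C1q gate, so these sums were partly fixed by the gates. Endothelial barcodes with no UMI of the same 7 leukocyte genes held 987 ± 513 CPM of Cd74, 28.1 CPM of Ciita and 1.94 CPM of H2-DMb2. The part of leukocyte RNA in the endothelial levels was not tested beyond these values.

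Within endothelium the members were uneven between vessel types, which were split by markers of lung capillary, aerocyte (a second lung capillary type), large vessel and liver sinusoid cells. Lung capillary barcodes had 1645 ± 781 CPM of Cd74 (n = 8; lowest 713, highest 2963), aerocytes 402 ± 241 CPM (n = 7), large vessels 337 ± 157 CPM (n = 8) and liver sinusoids 94.9 ± 58.2 CPM (n = 3). Within libraries the lung capillary level exceeded that of aerocytes in 7 of 7 and that of large vessels in 8 of 8. Ciita was 45.7 ± 27.5 CPM in lung capillaries, 7.20 ± 14.0 CPM in aerocytes and 8.23 ± 11.5 CPM in large vessels, and had no UMI in the 3 sinusoid samples. The aerocyte and large vessel values rest on few UMIs. In Nalcn-null replicate 2, 1 UMI among 23 aerocytes gave 38.2 CPM, and in Nalcn-wt replicate 1 all 5 large vessel UMIs lay in 1 barcode. Aerocytes exceeded T-gated barcodes for Cd74 in 1 of 7 libraries and large vessels in 2 of 8, so most of these levels lay below the T-gated one.

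Other Epcam-gated epithelium lay below T-gated barcodes for Cd74 in 8 of 8 libraries and for Ciita in 8 of 8. Its unthinned share of barcodes with a Cd74 UMI, 35.2%, exceeded the T-gated 28.0% (8 libraries each) at a greater median depth (2809 to 9564 against 985 to 3006 UMIs), while at 1000 UMIs it was 11.9% against 20.04%. The share and the CPM thus gave the same order only after thinning, and other Epcam-gated epithelium was then below the T-gated class by both. Proximal tubule barcodes, of kidney, were likewise below T-gated ones for Cd74 in 8 of 8 libraries (293 ± 225 CPM).

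The other pathway genes were read in the same fits. Of 10 regulators, 6 were higher in endothelium than in other Epcam-gated barcodes, where 32.5% of all genes were. Among them were the interferon-responsive factors Irf1 (log2 change 2.46) and Irf8 (2.08) and the X-box factor Creb1 (1.51). Against T-gated barcodes 2 were higher (Irf1, 1.66) and 3 lower (Spi1, -1.43), where 29.5% and 34.4% of all genes were. Cd40, a costimulatory receptor, was higher in endothelium than in other Epcam-gated (3.42) and T-gated barcodes (1.71). Cd86 was higher than in other Epcam-gated barcodes (1.42), while Cd86 (-1.77) and Cd80 (-1.35), a further costimulatory gene, were lower than in T-gated ones. In AT2-gated barcodes, 0 of 8 regulators tested against other epithelium were called by edgeR and 0 had an unadjusted p under 0.05 (median log2 change -0.29, beside -0.34 for all genes), and 1 of 5 was lower than in T-gated barcodes (Irf8, -2.33), where 940 of 5378 genes were lower. Ctsh, a protease that also processes surfactant proteins, was higher in AT2-gated than in T-gated barcodes (3.07), while Ctss, which trims the invariant chain in leukocytes, was lower (-2.90). Median log2 changes of the members were 2.22 (endothelium against other Epcam-gated) and 0.57 (endothelium against T-gated), and those of all genes tested -0.04 and -0.08.

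Genotype was compared over all ntCZC barcodes and within tissue B-gated, C1q macrophage-gated and endothelial barcodes. Nalcn-null against Nalcn-het ntCZC libraries gave 0 of 10 members called by edgeR (all genes: 0%) and 0 by DESeq2 (16 genes called in all), with 3 members at an unadjusted p under 0.05 (all genes: 686 of 9379). These were H2-Oa (log2 change -1.25, adjusted p = 0.546), H2-DMb2 (-1.76, adjusted p = 0.471) and H2-Ob (-1.46, adjusted p = 0.577), the members with the largest share of their UMIs in B-gated barcodes. H2-DMb2 was 114, 94.2, 275 and 16.9 CPM in Nalcn-het, 64.2, 23.0, 47.3 and 67.4 CPM in Nalcn-null and 6.37 and 0 CPM in Nalcn-wt libraries. The Nalcn-het values spanned those of Nalcn-null, and the Nalcn-wt pair was lowest. B-gated barcodes were 32 of 108, 22 of 62, 71 of 161 and 28 of 578 passing ones in Nalcn-het replicates 1 to 4. They were 12 of 138, 21 of 284, 4 of 36 and 60 of 240 in Nalcn-null replicates 1 to 4. In the Nalcn-wt libraries they were 10 of 491 and 1 of 11. The part of B-gated numbers in these values was not tested.

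Nalcn-null against Nalcn-wt also gave 0 members by edgeR (all genes: 0%) and 0 by DESeq2 (13 genes called in all), none at an unadjusted p under 0.05. Nalcn-het against Nalcn-wt gave 0 by edgeR (all genes: 0.107%) and 1, H2-DMb2, by DESeq2, which called 101 genes in all where edgeR called 10. In the edgeR fit 4 members had an unadjusted p under 0.05 (all genes: 741 of 9379). H2-DMb2 had the largest of these changes (3.79, SE 0.91, adjusted p = 0.298). Without Nalcn-het replicate 4, which held the lowest Nalcn-het value of H2-DMb2, 2 members were called in each of the comparisons with Nalcn-het. The share of all genes called in these refits is not given here, so the counts have no background beside them. The Nalcn-wt group had 2 libraries, of which replicate 3 was the shallow one.

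Tissue Nalcn-null replicate 3, which held both Xist and Y-linked transcripts, had its genotype taken from the strain label. In tissue B-gated barcodes, 0 members were called for Nalcn-null against Nalcn-wt (all genes: 0%). At an unadjusted p under 0.05 there was 1 member, Ciita (-0.73 on the log2 scale, adjusted p = 0.563), beside 810 of 9970 genes. For Nalcn-het against Nalcn-wt 0 were called (all genes: 0.0301%), with no member at an unadjusted p under 0.05. In C1q macrophages, Cd74 was 4506 and 10204 CPM in Nalcn-null, 9627 and 10762 CPM in Nalcn-het and 17420, 4948, 11471, 13809 and 10565 CPM in Nalcn-wt libraries, which overlapped. No member was called for Nalcn-null (all genes: 0.0513%) or Nalcn-het (all genes: 0%) against Nalcn-wt there. In endothelial barcodes, Cd74 was 1265 and 905 CPM in Nalcn-null, 2039 and 520.3 CPM in Nalcn-het and 569 to 1353 CPM in 4 Nalcn-wt libraries, and again 0 members were called for Nalcn-null (all genes: 0%) or Nalcn-het (all genes: 0%). DESeq2 called 0 members and 6 to 28 genes in all in these 6 tissue comparisons, and in C1q macrophages and endothelium no member had an unadjusted p under 0.05. AT2-gated barcodes came from 1 library per genotype, so genotypes were not compared in them.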

How the data were processed

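Per the labels and the study's methods, the authors sorted or dissociated cells, made 10x 3′ single-cell libraries, and deposited filtered matrices of UMI counts (mm10; Cell Ranger 3.0.2 in the matrix headers, while the submitters' processing notes name Cell Ranger 2.1.1 and Seurat). The deposited counts are whole numbers, not normalized. The 10 members and all lists were chosen with earlier results of these data known.

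Barcodes that held 200 genes or more, and no more than 25% of UMIs from mitochondrial genes, were gated by markers: at least 2 of 5 genes for B and T cells, 2 of 3 C1q genes, 3 of 6 for nonclassical monocytes, 3 of 7 with Sftpc at 1% of UMIs for AT2, and 2 with Pecam1 or Epcam for endothelium and other epithelium, without Ptprc. Non-leukocyte gates excluded barcodes that met a leukocyte gate, and some overlaps of leukocyte gates were given to a single class. Barcodes still passing 2 or more gates were left out as possible doublets, and no doublet caller was run. Libraries with at least 20 barcodes of a class entered. Counts were summed per library and class and tested with edgeR 4.0.16 in R 4.3.3 (TMM scaling, filterByExpr, quasi-likelihood test, sex as covariate for comparisons between libraries and library as block within libraries, Benjamini-Hochberg threshold 0.05), with DESeq2 1.42.0 as an alternative. The fits were run on simulated counts with known fold changes and a single fixed spread for all genes. That simulation held no batch or cell make-up effect, so it checks the code and not the spread of these libraries. Shares were thinned to 1000 UMIs analytically. Intervals cover counting error only. All members are named. Of each pathway list at most 3 called genes of largest change are named per comparison, with the 5 genes most like the mean of the classical chains and Cd74.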

Additional observations from a re-analysis of the deposited data

Results flagged for a closer look

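Among 90 groups of 4 to 10 libraries examined for a sample far from the others, 19 were picked out. Chance picks about 1 in 20 where values are normally spread, which need not hold for counts near 0. Some picks rested on few UMIs: 2 for H2-DMb2 in monocytes of ntCZC Nalcn-null replicate 2, and 4 for H2-Ob in monocytes of ntCZC Nalcn-het replicate 2. H2-Oa in other Epcam-gated barcodes of tissue Nalcn-wt replicate 4 also rested on 4. Over all barcodes, ntCZC Nalcn-wt replicate 3 was low for H2-DMa (24.8 CPM) and ntCZC Nalcn-het replicate 3 high for H2-DMb2 (275 CPM). Tissue Nalcn-wt replicate 4 was high for 4 members, H2-DMb2 (60.4 CPM), H2-Oa (49.8 CPM), H2-Ob (90.8 CPM) and Ciita (53.3 CPM), and tissue Nalcn-wt replicate 2 for H2-DMb1 (83.5 CPM). In nonclassical monocytes, ntCZC Nalcn-null replicate 2 held the only H2-DMb2 value above 0 (2.34 CPM) and ntCZC Nalcn-het replicate 2 the highest H2-Ob (30.1 CPM), and tissue Nalcn-wt replicate 3 was high for H2-Aa (2074 CPM), H2-Ab1 (1882 CPM) and Cd74 (6559 CPM). In endothelial barcodes, H2-DMb1 was high in Nalcn-het replicate 1 (102 CPM), H2-DMb2 in Nalcn-null replicate 2 (17.9 CPM) and H2-Ob in Nalcn-wt replicate 4 (29.0 CPM). In other Epcam-gated barcodes, H2-DMb2 was high in Nalcn-null replicate 3 (19.7 CPM), and H2-Oa (5.12 CPM) and H2-Ob (14.1 CPM) in Nalcn-wt replicate 4, which was also high for Ciita in T-gated barcodes (17.6 CPM).

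The circulating minus tissue change was larger in B-gated barcodes than in nonclassical monocytes, by a test of the difference, for H2-Ab1 (1.06), H2-Eb1 (1.03), H2-DMb2 (4.92) and Cd74 (0.98). H2-DMb2 had no UMI in 6 of the 7 ntCZC monocyte libraries and entered the test through B-gated barcodes, so its value is a description. The calls of H2-Ab1, H2-Eb1 and Cd74 were lost without ntCZC Nalcn-null replicate 4 (0.89, 0.82 and 0.86). In a tissue library without an agreed genotype, H2-DMa reached 179 CPM over all barcodes, above the highest Nalcn-wt library (138 CPM).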

How the results depend on the processing

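Of 48 member calls, 670 of 765 recomputed values kept the call, 95 lost it and 0 reversed, and 125 values of members that were not called changed sign. Counts of members called moved as follows, and the cause was not tested. Apart from DESeq2, the share of all genes called in each refit is not given here or above. These counts therefore have no background beside them and are not results about the members. Over all barcodes, 5 members were called among barcodes with at least 200 genes and 5 to 8 with single libraries left out. In nonclassical monocytes, 0 were called with RLE scaling, with DESeq2, without the sex covariate, with at least 500 genes per barcode, and, in an alternative chosen after seeing the data, without leukocyte barcodes that held a non-leukocyte pattern; 3 were called without a filter on low counts and 0 to 2 with single libraries left out. Leaving out single libraries gave 1 to 5 members for the difference between B-gated barcodes and monocytes, 4 to 7 for AT2-gated against other Epcam-gated barcodes, 2 to 4 for AT2-gated and 5 to 9 for Pecam1-gated against T-gated barcodes, 0 to 2 for Nalcn-null against Nalcn-het and 0 to 2 for Nalcn-het against Nalcn-wt ntCZC libraries. DESeq2 gave 2 for AT2-gated against T-gated barcodes and 1 for Nalcn-het against Nalcn-wt, where no filter also gave 1. At 500 UMIs per barcode, the expected share with Cd74 was 68.5% of AT2-gated and 31.2% of endothelial barcodes.

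A replicate block on genotype and replicate number left 4 members called over all barcodes, again without the share of all genes. Same-numbered ntCZC and tissue libraries did not deviate together (correlations from -0.110 to 0.069 over 6 pairs, from -0.237 to 0.246 between ntCZC genotypes and from -0.299 to 0.030 between tissue genotypes), and the numbers were not taken as a pairing. Such correlations between sorted blood cells and pooled organs cannot exclude a shared animal. The ntCZC and tissue libraries of Nalcn-wt replicates 1 and 3, Nalcn-het replicate 2 and Nalcn-null replicate 2 match in age and sex. The gate without 7 further leukocyte genes was not run for the AT2 fits, because no library kept 20 barcodes.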

Other observations

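In the tissue libraries whose title and strain gave different genotypes, member levels were read without a test. In the first, Cd74 was 1926 CPM in endothelial barcodes (Nalcn-wt libraries 569 to 1353 CPM), 2238 CPM in AT2-gated barcodes, 850 CPM in T-gated and 6563 CPM in B-gated barcodes, and endothelial Ciita was 49.7 CPM. In the other, Cd74 was 315 CPM in endothelial, 121 CPM in T-gated, 8206 CPM in B-gated and 51.5 CPM in other Epcam-gated barcodes.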
